A study of Mus musculus with 4 samples.

Results

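The cadherin and protocadherin genes of the embryonic mouse kidney were taken as all genes whose symbol is Cdh followed by a number, or Pcdh followed by a number or by the letter a or b. Of 27932 genes in the count tables, 58 met that rule, namely 23 Cdh genes and 35 Pcdh genes, 22 of which belong to the clustered Pcdhb family. The rule uses symbols alone and no measured value, although it was set with earlier results of these data known. Kidney cells of mouse embryos at E14.5 were profiled by Drop-seq, which pairs a cell with a barcoded bead in an oil droplet and reads transcripts near their 3′ end. The mutant group consisted of 2 libraries labelled -/- for 6 Hox genes of the Abd-B class, which are Hoxa9, Hoxa10 and Hoxa11 and their HoxD counterparts Hoxd9, Hoxd10 and Hoxd11. The wildtype group consisted of 2 libraries, and both groups had the same mixed strain background, given as mainly CD-1 and 129. The title of the study concerns cells that lose their lineage identity when the function of these Hox genes is reduced. The labels do not say whether the libraries came from separate embryos or from pools, nor which part of each Hox gene is altered, so p-values measure the spread between these libraries only, which may be technical.

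Cadherins are calcium-dependent adhesion proteins of the cell surface. The classical cadherins (type I, such as E-cadherin and N-cadherin, and type II, such as Cdh6 and Cdh11) bind catenins through their cytoplasmic tail, and these link them to actin. During nephron formation, mesenchymal progenitor cells that carry Cdh2 and Cdh11 become epithelial and acquire other cadherins, with Cdh6 known from the future proximal segment and Cdh1 from the future distal segment. Protocadherins lack the catenin-binding tail. They fall into the non-clustered protocadherins, among them the delta-protocadherins, and the clustered families. The genes of the clustered families lie side by side and are best known from neurons, where combinations of isoforms give a cell its surface identity.

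The 4 tables held between 3572346 and 24834658 UMIs (molecular counts) in all. After removal of barcodes with a mitochondrial share over 10% and of the 5% with the highest doublet score per library, 810 and 4329 cells remained in mutants, and 1852 and 4788 cells in wildtype. Median depth was 2467 and 3021 UMIs per cell in mutants, and 3595 and 3451.5 UMIs in wildtype. The mitochondrial limit was passed by 19.6% and 29.1% of mutant barcodes, against 7.76% and 9.06% of wildtype barcodes. Only 2 kept barcodes were found in more than 1 library, both in mutant 2 and wildtype 2. Tags of all 6 targeted genes were present in every library, at 28.1 to 196 CPM (counts scaled to a total of 1000000 per library) in mutants and 19.7 to 175 CPM in wildtype. Tags at the 3′ end do not check a change elsewhere in the gene.

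All 58 members together made up 788 and 1049 CPM in the mutant libraries, against 739 and 544 CPM in the wildtype libraries. Of their 39375 UMIs, 70.4% came from 5 genes, which were Cdh11 (15372 UMIs), Cdh2 (4935 UMIs), Pcdh18 (2684 UMIs), Cdh16 (2601 UMIs) and Cdh5 (2121 UMIs). At least 150 UMIs were counted for 21 members. The other 37 members shared 1922 UMIs, and 14 of them had under 30 UMIs each. The 22 Pcdhb genes had 6 to 165 UMIs each and 1450 UMIs in sum. A level here is the number of UMIs of a gene per 1000000 UMIs of the same cells. It counts 3′ ends and is not scaled by gene length, and levels are compared below for 1 gene between cells and not between genes.

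The sequences upstream of 4 members are shown because these genes carry the genotype and cell type differences described below. Cdh8 and Pcdh9 were the members called higher in mutants, and Pcdh17 marked endothelial cells. Pcdh18 was higher in stromal cells than in the other main gates and was nearly absent from mutant ureteric cells. Each run is the 250 bases before the start of the gene in RefSeq on GRCm38.p6, read 5′ to 3′ along the strand of the gene. Capitals mark CCAAT or its reverse complement ATTGG, a motif of many promoters that was chosen after these letters had been seen.
Cdh8 (chr8:99416472-99416721, minus strand): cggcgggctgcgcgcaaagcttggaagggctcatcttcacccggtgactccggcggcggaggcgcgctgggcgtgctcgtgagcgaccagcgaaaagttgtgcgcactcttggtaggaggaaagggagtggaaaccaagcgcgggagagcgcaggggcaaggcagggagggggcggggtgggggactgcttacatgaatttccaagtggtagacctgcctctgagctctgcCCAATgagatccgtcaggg
Pcdh9 (chr14:93890680-93890929, minus strand): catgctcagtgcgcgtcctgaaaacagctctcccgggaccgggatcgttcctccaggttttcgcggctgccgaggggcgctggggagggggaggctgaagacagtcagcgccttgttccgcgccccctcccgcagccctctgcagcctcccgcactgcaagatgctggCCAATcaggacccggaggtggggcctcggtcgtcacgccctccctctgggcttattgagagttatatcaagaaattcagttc
Pcdh18 (chr3:49757317-49757566, minus strand): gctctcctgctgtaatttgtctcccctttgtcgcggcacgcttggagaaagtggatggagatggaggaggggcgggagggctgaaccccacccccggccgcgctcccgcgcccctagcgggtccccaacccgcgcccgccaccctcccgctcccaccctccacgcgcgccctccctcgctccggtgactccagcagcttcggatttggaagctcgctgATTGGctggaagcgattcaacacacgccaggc
Pcdh17 (chr14:84443313-84443562, plus strand): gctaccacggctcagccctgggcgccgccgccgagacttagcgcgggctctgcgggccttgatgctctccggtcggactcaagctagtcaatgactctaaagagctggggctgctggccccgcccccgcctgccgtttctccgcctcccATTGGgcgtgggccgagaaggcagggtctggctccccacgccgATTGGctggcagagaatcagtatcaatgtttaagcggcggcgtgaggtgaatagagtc

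A RefSeq promoter was given for 22 of the 58 members. CCAAT or ATTGG was found in 14 of these 22 (63.6%), against 34.5% of all 27025 promoters of the same length. A member was counted when any of its listed promoters matched, while the background took a single promoter per gene, so the shares are not strictly alike. GC content was 64.4% for Cdh8, 63.6% for Pcdh9, 68.0% for Pcdh18 and 64.8% for Pcdh17, against a median of 52.0% over all promoters with quartiles of 44.8% and 60.8%. TTTAT (or ATAAA), the AT-rich core bound by Hox proteins of the Abd-B class, was in none of the 4 windows and in 38.1% of all promoters. GGAA (or TTCC), the core bound by ETS factors, was absent from the Pcdh17 window and present in 93.4% of all promoters. A match is a string of letters and not a site shown to be bound, and a missing match describes only this window. No motif overlapped another in the capitals shown.

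By position in GENCODE vM21 (mm10, the build of the deposited counts), 26 of the members lay on chromosome 18, among them all 22 Pcdhb genes, and 8 lay on chromosome 8. On chromosome 8 were the epithelial genes Cdh1 (chr8:106603351-106670246) and Cdh16 (chr8:104601911-104624396), and also the endothelial Cdh5 (chr8:104101625-104144511), and Cdh11 (chr8:102632095-102785642) and Cdh8 (chr8:99024471-99416471). Exons of Pcdha2 share 2712 bases with 12 neighbouring genes on the same strand, so that its counts cannot be assigned to 1 gene. Exons of Pcdhb21 and Pcdhb22 overlap by 455 bases. Pcdh7 shares 2235 exonic bases with an antisense gene in the tables, and Cdh8 (23 bases) and Pcdh19 (57 bases) have short overlaps of the same kind. How strand was handled in counting is not given in the sources used here, so the level of Pcdh7 is uncertain to that extent.

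Cells were sorted into gates by UMIs of marker genes that are not cadherins. A cell entered a gate when it had UMIs of at least 3 of 10 markers and at least 2 more than for any other of 12 lists. This placed 6801 of 11779 cells in 8 main gates, 314 in 4 side gates (immune, erythroid, neural and glial, mural), and left 4664 ungated. The main gates held 944 nephron progenitor cells, 554 early nephron cells, 314 podocytes, 125 proximal tubule cells, 388 loop and distal tubule cells, 354 ureteric cells, 3363 stromal cells and 759 endothelial cells. Nephron progenitor cells were 0 and 7 in the mutant libraries, against 285 and 652 in the wildtype libraries. That gate was therefore tested on the wildtype libraries alone, and the proximal tubule gate without mutant 1, which had 4 such cells. Stromal cells were 39.0% and 38.6% of mutant cells, against 25.1% and 19.0% of wildtype cells. For each gate, UMIs were summed per library and tested against the sum of the other 7 main gates with edgeR's quasi-likelihood test, with the library as block and Benjamini-Hochberg adjustment over all genes tested.

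Across the 8 gates, 36 of the 58 members could be tested in at least 1 gate, since the others had too few UMIs. Of these, 22 passed the test in some gate, and each of the 22 was higher in at least 1 gate, 15 of them in exactly 1. Between 24.5% (proximal tubule) and 39.2% (endothelium) of all genes were called in a single gate. The share of all genes called in at least 1 gate was not counted, so 22 of 36 is a description only. The other 14 passed in no gate, and among them Pcdhb17, Pcdhb21 and Pcdh15 had the most UMIs. In the map of pooled levels Cdh1, Cdh3 and Cdh16 were higher in the ureteric and the loop and distal tubule gates, Cdh4 and Cdh6 in nephron gates, Cdh5 and 3 protocadherins in endothelium, and Cdh8 and 7 protocadherins in stroma. Cdh11 was high in both stroma and nephron progenitors, and was called higher in progenitors.

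**Figure D1:**
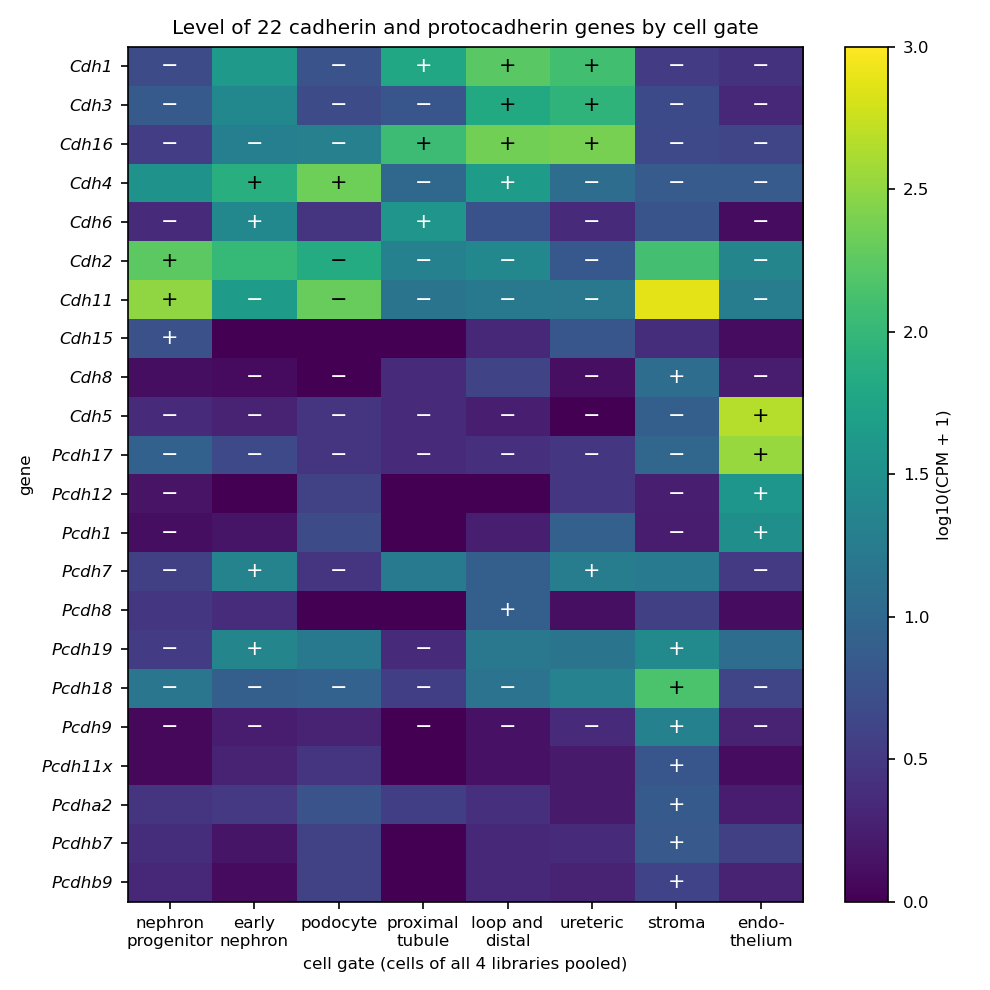
Pooled level of the 22 members that passed the test in at least 1 gate (rows) in the 8 main cell gates (columns), as log10(CPM + 1) with cells of all libraries pooled. A plus or minus sign marks a gate in which the gene was higher or lower than in the other gates by edgeR's test at an adjusted p under 0.05. Each gene has at least 1 plus sign, and 7 genes have 2 or more.

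The epithelial cadherins Cdh1, Cdh3 and Cdh16 were high in the loop and distal tubule gate and in ureteric cells, the epithelium that becomes the collecting duct. In the loop and distal tubule gate 15 members were tested, of which 5 were higher and 6 lower, where 27.3% of all genes were called, 12.8% higher and 14.6% lower. In ureteric cells 15 members were tested, 4 were higher and 8 lower, and 24.9% of all genes were called, 11% higher and 13.8% lower. The median log2 fold change of the members was -0.56 in loop and distal tubule cells and -1.60 in ureteric cells, against -0.04 over all genes in both. A gene could pass the filter on low counts through the gate or the rest alone. The members' medians by gate, here and below, are therefore descriptions and not tests.

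Cdh1 (E-cadherin, the adhesion protein of epithelial junctions) had 75.7 and 184 CPM in loop and distal tubule cells of the mutant libraries and 184 and 165 CPM in those of the wildtype libraries. In the other gates it had 25 and 14.6 CPM in mutants and 24.2 and 21.8 CPM in wildtype. All 4 libraries were thus higher in this gate than in the rest, without overlap (log2 fold change 2.96, SE 0.23, edgeR adjusted p = 1.06e-06). Proximal tubule cells were intermediate at 58.1 CPM in mutant 2 and 82.0 and 50.1 CPM in wildtype, and they too were above the other gates (0.97, SE 0.30, edgeR adjusted p = 0.00683). In early nephron cells Cdh1 had 22 and 36.8 CPM in mutants and 34.0 and 44.9 CPM in wildtype, which did not pass the test against the other gates (edgeR adjusted p = 0.107).

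Cdh16 (Ksp-cadherin, a kidney-specific cadherin without a catenin-binding tail) reached 120 and 241 CPM in loop and distal tubule cells of mutants and 203 and 241 CPM in those of wildtype, and 116 CPM in proximal tubule cells of mutant 2 against 118 and 111 CPM in wildtype. Its difference from the other gates was 2.70 (SE 0.42, edgeR adjusted p = 0.0150) in the loop and distal tubule and 1.43 (SE 0.25, edgeR adjusted p = 1.22e-07) in the proximal tubule, on the log2 scale. The first of these lost its call when either wildtype library was left out (edgeR adjusted p = 0.0803 without wildtype 1 and 0.0958 without wildtype 2). In ureteric cells Cdh16 had 483 and 443 CPM in mutants and 167 and 203 CPM in wildtype, against 13.5 and 29.1 CPM and 23.2 and 26.1 CPM in the other gates (3.44, SE 0.40, edgeR adjusted p = 0.00772).

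Cdh3 (P-cadherin, a classical cadherin of epithelia) had 88.6 and 83.7 CPM in ureteric cells of mutants and 75 and 97.1 CPM in those of wildtype, and the genotypes overlapped. It was higher than in the other gates in both the ureteric gate (log2 fold change 2.82, SE 0.19, edgeR adjusted p = 1.59e-10) and the loop and distal tubule gate (2.24, SE 0.23, edgeR adjusted p = 1.41e-07). In proximal tubule cells it had 3.87 CPM in mutant 2 and 10.2 and 3.58 CPM in wildtype, below the other gates (-1.78, edgeR adjusted p = 0.0377), a value that rests on 4 UMIs.

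Beyond summed levels, detection was counted cell by cell. After each cell was thinned to 1000 UMIs, a UMI of Cdh1 was found in 15.8% of loop and distal tubule cells (exact 95% interval 12.3% to 19.9%) and in 13.0% of ureteric cells (9.65% to 17%), against 0.258% of stromal cells (0.112% to 0.508%), which should lack it. Without thinning the shares were 51.3%, 45.8% and 0.743%, at median depths of 5044, 5540.5 and 3094 UMIs. Thinning left out 15, 8 and 266 cells under 1000 UMIs. Intervals cover counting error only. In ureteric cells, 119 of 354 had UMIs of both Cdh1 and Cdh16, 43 of Cdh1 alone, 95 of Cdh16 alone and 97 of neither. For Cdh1 and Cdh3 the counts were 72 with both, 90 with Cdh1 alone, 62 with Cdh3 alone and 130 with neither, so that a UMI of 1 of these cadherins was often seen without the other at this depth.

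Within the nephron lineage, progenitors and the later segments differed in their cadherins. In the nephron progenitor gate, tested on wildtype libraries alone, 21 members were tested, 3 were higher and 12 lower, and 36.5% of all genes were called (16.5% higher, 20% lower). In early nephron cells 15 members were tested, 4 were higher and 7 lower, where 31.6% of all genes were called (13.9% higher, 17.7% lower). In podocytes 16 members were tested, 1 was higher and 10 were lower (27.5% of all genes were called, 8.7% higher and 18.8% lower), and in the proximal tubule 22 were tested, 3 higher and 9 lower (24.5% called, 10.4% higher and 14.1% lower). The median log2 fold change of the members in these 4 gates was -1.62, 0.10, -1.77 and -1.86 in that order, against 0.02, -0.03, -0.19 and -0.18 over all genes.

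Cdh2 (N-cadherin, a classical cadherin of mesenchyme and neural tissue) had 252 and 143 CPM in wildtype progenitor cells, against 83.3 and 49.2 CPM in the other wildtype gates (log2 fold change 1.67, SE 0.08, edgeR adjusted p = 1.26e-14). Early nephron cells had 104 and 126 CPM in mutants and 110 and 81.5 CPM in wildtype, which overlapped with the mean of the other gates (edgeR adjusted p = 0.599). Setting these cells against the other gates without the progenitor and proximal tubule gates gave 0.56 (SE 0.13, edgeR adjusted p = 0.000322), a comparison added after the data had been seen. In loop and distal tubule cells Cdh2 had 6.31 and 23.2 CPM in mutants and 45.4 and 16.6 CPM in wildtype, below the other gates (-2.19, SE 0.20, edgeR adjusted p = 3.18e-08). Ureteric cells, which arise from another lineage, had 0 and 9.30 CPM in mutants and 3.17 and 7.26 CPM in wildtype.

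Cdh11 (a type II cadherin of mesenchyme) was measured at 362 and 297 CPM in wildtype progenitor cells, above the 229 and 202 CPM of the other wildtype gates, which include the stroma (0.70, SE 0.06, edgeR adjusted p = 5e-10). Early nephron cells had 60.4 and 50.8 CPM in mutants and 20.1 and 45.4 CPM in wildtype, and all 4 libraries lay below the other gates (-3.07, SE 0.16, edgeR adjusted p = 5.76e-10). Podocytes had 164 and 219 CPM in mutants and 209 and 101 CPM in wildtype. Podocytes were below the other gates, which hold many stromal cells (-1.35, SE 0.20, edgeR adjusted p = 1.56e-10). A joint fit gave equal weight to each gate with at least 10 cells in every library. The progenitor and proximal tubule gates were thus not in it. Against the mean of the other gates' log levels in that fit, the sign was the opposite for Cdh11 (1.88) and for Cdh2 (0.68) in podocytes. The 10 stromal markers, of which Ntn1 alone was at 0, summed to 1420 and 2407 CPM in podocytes of mutants and to 2373 and 553 CPM in those of wildtype, against 110 to 167 CPM in loop and distal tubule cells. The library with the lowest sum also had the lowest podocyte level of Cdh11, and the part of stromal RNA in that level was not tested. Cdh15 (M-cadherin, known from muscle) was also called in progenitors at 6.24 and 3.83 CPM, on 30 UMIs (1.56, SE 0.48, edgeR adjusted p = 0.0131).

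Cdh6 (K-cadherin, a type II cadherin of the early proximal nephron) had 16.5 and 45.6 CPM in early nephron cells of mutants and 24.7 and 9.88 CPM in those of wildtype, against 1.10 and 6.20 CPM and 4.52 and 1.89 CPM in the other gates. Each library was higher in early nephron cells than in its own other gates (2.72, SE 0.32, edgeR adjusted p = 2.38e-08). Proximal tubule cells had 58.1 CPM in mutant 2 and 41.0 and 14.3 CPM in wildtype (2.60, SE 0.50, edgeR adjusted p = 3.69e-06), from 27 UMIs. The order between libraries was alike in both gates, with mutant 2 highest. Podocytes had UMIs of Cdh6 in wildtype alone, 2 in all, and progenitors were below the other gates at 0 and 1.92 CPM (-1.86, edgeR adjusted p = 0.0286).

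Cdh4 (R-cadherin, a type I cadherin first known from retina) was the podocyte member. It had 105 and 202 CPM in podocytes of mutants and 430 and 216 CPM in those of wildtype, against 21.7 and 17.8 CPM and 29.2 and 26.2 CPM in the other gates. The difference was called in the same direction in all 4 libraries (3.07, SE 0.24, edgeR adjusted p = 3.1e-36), and no other member was higher in podocytes. Early nephron cells had 121 and 75.8 CPM in mutants and 89.6 and 70.6 CPM in wildtype, also above the other gates (1.89, SE 0.17, edgeR adjusted p = 5.55e-11). In the loop and distal tubule a smaller difference of 0.70 (SE 0.22, edgeR adjusted p = 0.0190) lost its call without mutant 1 (0.0566), without wildtype 1 (0.240) and under DESeq2 (0.113). Thinned to 1000 UMIs, 23.7% of podocytes had a UMI of Cdh4 (18.9% to 29.0%), against 0.416% of endothelial cells (0.0859% to 1.21%). The unthinned shares were 43.9% and 3.16%, at median depths of 2961.5 and 4064 UMIs, and thinning left out 23 and 38 cells.

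Single cells of the early nephron gate were mixed in their cadherins. Of 554 cells, 190 had UMIs of Cdh2 without Cdh1, 61 of Cdh1 without Cdh2, 46 of both and 257 of neither. In the loop and distal tubule gate the balance was the opposite, with 178 of 388 cells having Cdh1 without Cdh2, 19 having Cdh2 without Cdh1 and 21 having both. For the presumptive proximal and distal cadherins in early nephron cells, 55 had Cdh6 without Cdh1, 83 had Cdh1 without Cdh6 and 24 had both. A UMI of Cdh6 together with Cdh4 was found in 37 of the 554 cells. A cell without a UMI of a gene may still express it at this depth, and cells of 1 library are not replicates, so these counts are given without a test.

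**Figure D2:**
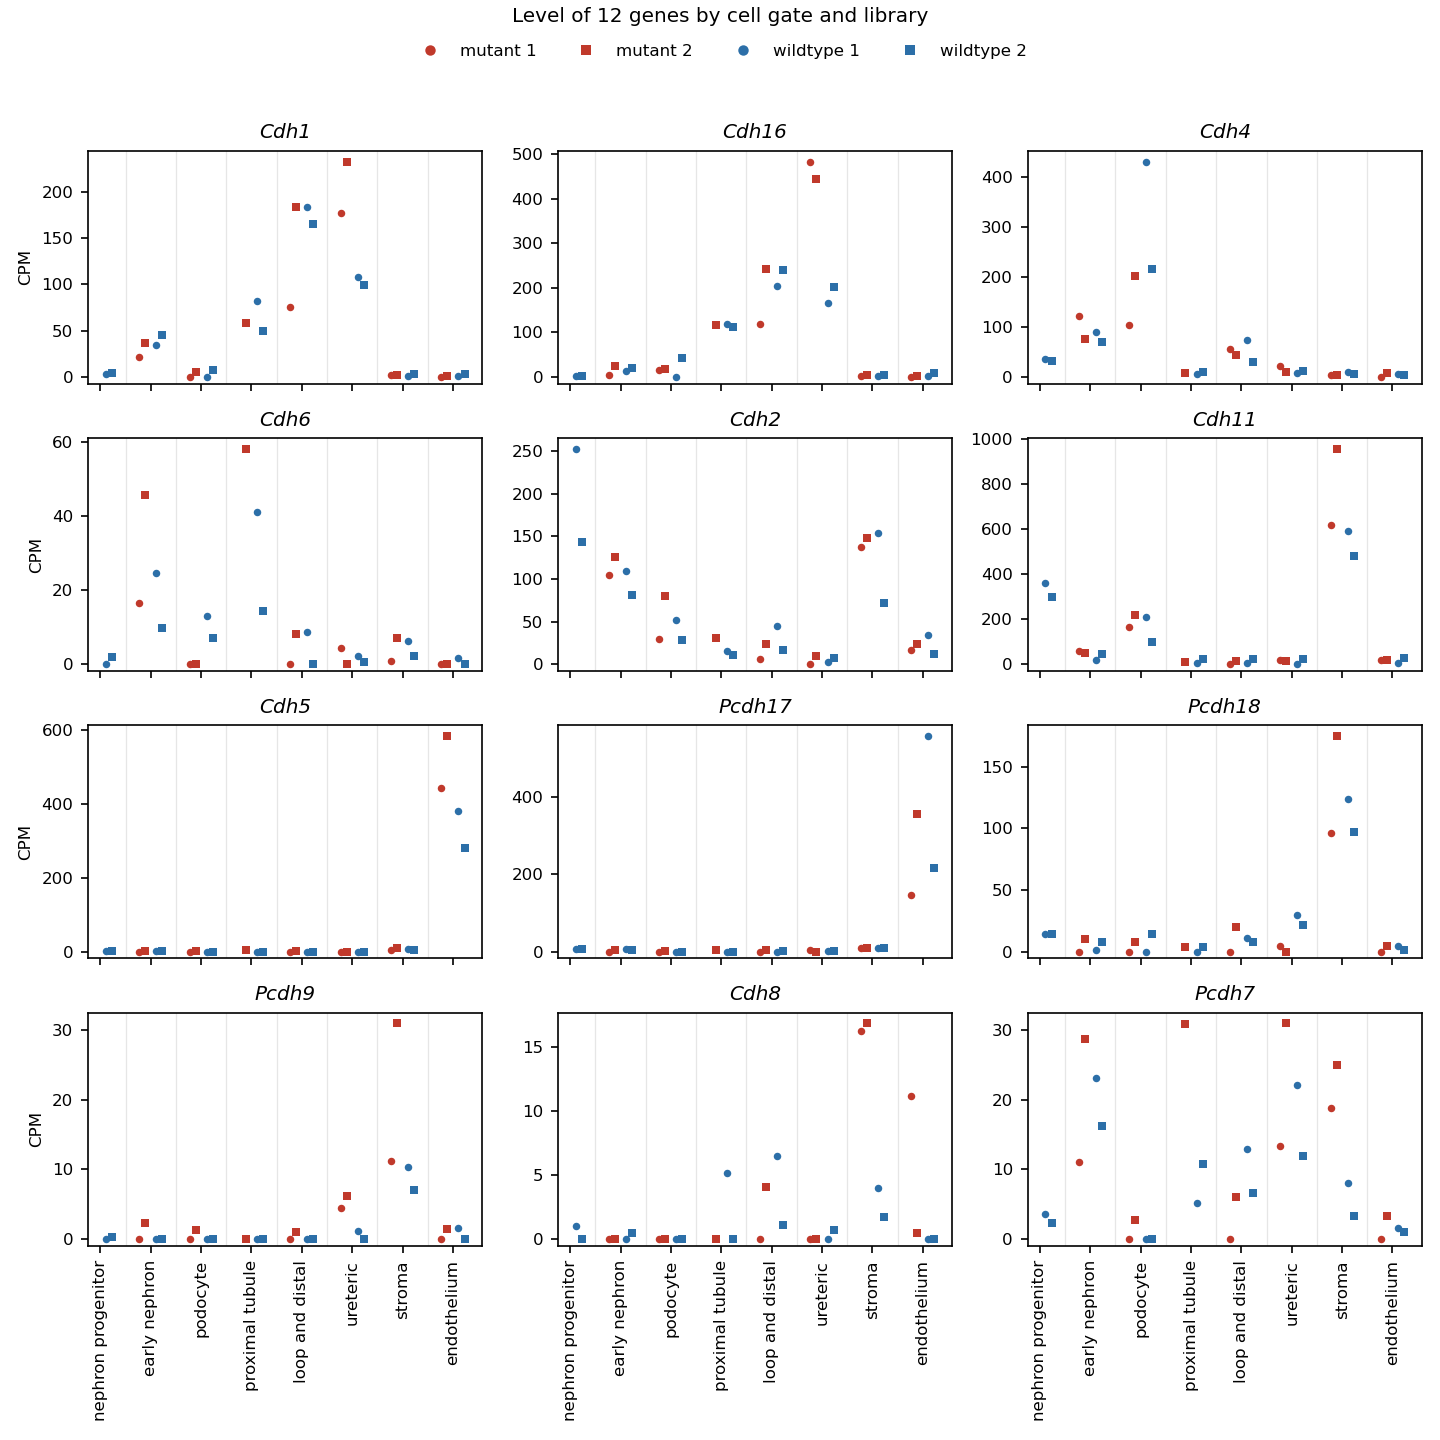
Level of 12 members in CPM in each library and main gate with at least 10 cells, mutant libraries in red on the left and wildtype libraries in blue on the right of each gate. Cdh5 reaches 279 to 583 CPM in the endothelium of all 4 libraries, and Cdh4 reaches 105 to 430 CPM in podocytes.

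Endothelial cells had the member with the largest difference from the other gates among those called. Of 18 members tested in this gate 4 were higher and 11 lower, where 39.2% of all genes were called (17.7% higher, 21.5% lower), and the median log2 fold change was -2.52 against -0.06 over all genes. Cdh5 (VE-cadherin, the cadherin of endothelial junctions) had 442 and 583 CPM in endothelial cells of mutants and 380 and 279 CPM in those of wildtype, against 2.2 and 7.31 CPM and 2.0 and 1.52 CPM in the other gates. The lowest endothelial library was far above the highest of the rest (7.07, SE 0.20, edgeR adjusted p = 8.9e-12), a 135-fold difference. Of all Cdh5 UMIs in kept cells, 88.7% came from this gate. After thinning, 38.1% of endothelial cells had a UMI of Cdh5 (34.6% to 41.8%), against 0 of 346 ureteric cells, which allows a share of up to 0.867% by 3 counts of the total (exact 95% upper limit 1.06%), and 0.936% of stromal cells. The unthinned shares were 75%, 0 of 354 and 2.11%, at median depths of 4064, 5540.5 and 3094 UMIs, and 38, 8 and 266 cells were left out by thinning.

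The other 3 endothelial members were protocadherins. Pcdh12 (a VE-cadherin-associated protocadherin of endothelium) had 28.0 and 45.5 CPM in endothelial cells of mutants and 31.6 and 24.8 CPM in those of wildtype, and at most 1.10 CPM in the other gates of any library (5.57, SE 0.37, edgeR adjusted p = 4.15e-13). Pcdh17 (a delta-2 protocadherin) had 145 and 356 CPM in mutants and 557 and 216 CPM in wildtype, against 6.59 and 6.31 CPM and 6.01 and 6.09 CPM in the other gates (5.80, SE 0.29, edgeR adjusted p = 1.11e-05). Its endothelial level varied more between libraries than that of Cdh5 and the genotypes overlapped. Pcdh1 (a delta-1 protocadherin) had 11.2 and 41.8 CPM in mutants and 15.8 and 17.2 CPM in wildtype (4.14, SE 0.48, edgeR adjusted p = 1.21e-06). Of 759 endothelial cells, 332 had UMIs of both Cdh5 and Pcdh17, 237 of Cdh5 alone, 88 of Pcdh17 alone and 102 of neither. The Pcdh17 window printed above was the one without GGAA.

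In stromal cells, of 36 members tested 8 were higher and 8 lower, where 36.8% of all genes were called (18.4% in each direction). The members' counts were thus near the background, and the members' median log2 fold change was 0.68, against 0.00 over all genes. This median is a description, since a gene could pass the filter on low counts through the stromal sum alone. Of the 8 higher members, 7 were protocadherins and 1, Cdh8, was a type II cadherin. Stromal cells are the interstitial mesenchyme around nephrons and ducts, and their gate used Foxd1, Penk, Pdgfra and Col1a2 among its markers.

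Pcdh18 (a delta-2 protocadherin) was the most abundant of the stromal set in UMIs, with 96.1 and 175 CPM in stromal cells of mutants and 124 and 97.2 CPM in those of wildtype, against 1.20 and 8.43 CPM and 13.3 and 11.8 CPM in the other gates (3.67, SE 0.35, edgeR adjusted p = 0.00137). Of its UMIs, 65.8% were stromal. A further 3.28% lay in the few mural cells, a side gate outside this test, where the level of Pcdh18 was above that of stroma in each library. Pcdh9 (a delta-1 protocadherin) had 11.1 and 31.0 CPM in mutants and 10.3 and 6.98 CPM in wildtype, against 1.20 and 1.69 CPM and 0.410 and 0.0943 CPM in the other gates (4.53, SE 0.37, edgeR adjusted p = 5.62e-06), and 81.4% of its UMIs were stromal. Both were higher in stroma in all 4 libraries. Thinned to 1000 UMIs, 12.4% of stromal cells had a UMI of Pcdh18 (11.3% to 13.6%), against 0.277% of endothelial cells (0.0336% to 0.998%), and the unthinned shares were 33.1% and 1.58%.

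Cdh8 (a type II cadherin known mainly from brain) had 16.3 and 16.9 CPM in stromal cells of mutants and 4.02 and 1.68 CPM in those of wildtype, against 2.40 and 0.843 CPM and 1.23 and 0.283 CPM in the other gates (3.11, SE 0.48, edgeR adjusted p = 0.000517). Pcdh11x (a delta-1 protocadherin) had 6.86 and 7.39 CPM in mutants and 3.44 and 2.23 CPM in wildtype, at most 0.674 CPM in the other gates (3.06, SE 0.51, edgeR adjusted p = 0.000851), and 68 stromal UMIs in all. For both, the mutant stroma lay above the wildtype stroma in each library, which is taken up below. Pcdh19 (a delta-2 protocadherin) was spread more evenly, with 26.6 and 32.6 CPM in stroma of mutants and 31.5 and 13.4 CPM in stroma of wildtype (1.14, SE 0.17, edgeR adjusted p = 0.000391). It was also called in early nephron cells (0.65, SE 0.24, edgeR adjusted p = 0.0400), a call that was lost when either wildtype library was left out (0.158 without wildtype 1 and 0.292 without wildtype 2) and under DESeq2 (0.320).

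Among the clustered protocadherins, Pcdhb7 had 7.72 and 5.14 CPM in stroma of mutants and 5.74 and 6.42 CPM in stroma of wildtype (2.03, SE 0.44, edgeR adjusted p = 0.00448), and Pcdhb9 had 3.43 and 2.89 CPM in mutants and 4.59 and 2.51 CPM in wildtype (1.65, SE 0.56, edgeR adjusted p = 0.0387). The Pcdhb9 call was lost without mutant 1 (0.0548), without wildtype 1 (0.144), without wildtype 2 (0.0839) and under DESeq2 (0.107). The row named Pcdha2 had 6.0 and 6.74 CPM in stroma of mutants and 9.75 and 3.07 CPM in stroma of wildtype (1.82, SE 0.39, edgeR adjusted p = 0.00393), a level that belongs to exons shared with its neighbours. Pcdhb17 (0.75, edgeR adjusted p = 0.115) and Pcdhb21 (0.43, edgeR adjusted p = 0.462) did not pass the test in stroma. The 22 Pcdhb genes summed to 43.7 and 51.7 CPM in stromal cells of mutants and to 41.9 and 33.5 CPM in those of wildtype. In ureteric cells the sum was 48.7 and 15.5 CPM in mutants, on 11 and 5 UMIs, and 13.7 and 10.6 CPM in wildtype. Loop and distal tubule cells had 12.6 and 41.4 CPM in mutants and 10.8 and 7.73 CPM in wildtype. Podocytes had 59.8 and 44.9 CPM in mutants and 13.0 and 35.9 CPM in wildtype, and endothelial cells 44.7 and 30.3 CPM and 26.9 and 21.0 CPM. The stromal sum was thus not the highest in every library.

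The most abundant member in stroma, Cdh11, had 619 and 957 CPM in stromal cells of mutants and 594 and 481 CPM in those of wildtype. In the other gates it had 34.8 and 54.4 CPM in mutants and 151 and 150 CPM in wildtype. All stromal values were above all others, yet the fold differed between genotypes and the test was not passed (2.86, SE 0.69, edgeR adjusted p = 0.0547). The rest held 285 and 652 progenitor cells in wildtype, against 0 and 7 in mutants. With the progenitor and proximal tubule gates taken out of the rest, an alternative added after seeing the data, Cdh11 was called (4.36, SE 0.28, edgeR adjusted p = 0.000829), and so was Cdh2 (1.54, SE 0.17, edgeR adjusted p = 0.000209, against 0.80 and 0.288 with all gates). Thinned to 1000 UMIs, 50.2% of stromal cells had a UMI of Cdh11 (48.4% to 52.0%), against 2.50% of endothelial cells (1.49% to 3.92%). The unthinned shares were 78.4% and 7.38%.

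Within the stroma gate, cells with UMIs of Foxd1 or Ntn1 (genes of the cortical stroma) and none of Penk or Alx1 (genes of the medullary stroma) were set beside cells with the opposite pattern, a split made with these values known and given without a test. Cdh2 had 179 and 185 CPM in the Foxd1 or Ntn1 cells of mutants and 193 and 108 CPM in those of wildtype. In the Penk or Alx1 cells it had 55.9 and 105 CPM in mutants and 107 and 48.4 CPM in wildtype, lower than in the Foxd1 or Ntn1 cells in each of the 4 libraries. Cdh8 had 10 and 28 UMIs in the Foxd1 or Ntn1 cells of mutants (27.9 and 19.6 CPM), against 0 and 14 UMIs in the Penk or Alx1 cells (0 and 8.38 CPM). In wildtype it had 2 and 2 UMIs against 2 and 1, too few for a direction. Cdh11 had 567 and 979 CPM in the Foxd1 or Ntn1 cells of mutants and 452 and 379 CPM in those of wildtype, against 600 and 925 CPM and 667 and 544 CPM in the Penk or Alx1 cells, with no common direction over the libraries. The cell sets numbered 78 and 344 cells in mutants and 109 and 155 in wildtype for Foxd1 or Ntn1, and 49 and 453 in mutants and 136 and 373 in wildtype for Penk or Alx1.

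Pcdh7 (a delta-1 protocadherin) was called in early nephron cells, where it had 11.0 and 28.7 CPM in mutants and 23.2 and 16.3 CPM in wildtype (1.22, SE 0.28, edgeR adjusted p = 0.000775), and in ureteric cells, where it had 13.3 and 31.0 CPM in mutants and 22.2 and 11.9 CPM in wildtype (0.96, SE 0.30, edgeR adjusted p = 0.0207). The ureteric call was lost without wildtype 1 (0.221), without wildtype 2 (0.157), without the library block (0.456), with the smaller rest that lacks progenitor and proximal tubule cells (0.0693) and under DESeq2 (0.110). Mutant 1 lay below its own other gates in both cell types. Pcdh8 (paraxial protocadherin) was called in the loop and distal tubule on 18 UMIs (1.88, SE 0.61, edgeR adjusted p = 0.0249). Pcdh15, known from the hair cells of the inner ear, passed in no gate, and 63 of its 168 UMIs were in ungated cells.

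The first question of the design was whether these genes differ between mutant and wildtype kidneys. Taken over all kept cells, 43 members could be tested and 2 were higher in mutants, Pcdh9 and Cdh8, and none was lower, where 1.19% of all genes were called 0.881% higher and 0.311% lower. In mutants 36 of the 43 lay above 0 on the log2 scale and 7 below, and their median was 0.77, against 0.01 over all genes. Since a gene could pass the filter on low counts through 1 genotype alone, this median is a description and not a test. At an unadjusted edgeR p under 0.05 there were 9 of the 43 members, against 1497 of all 15776 genes tested. In 21 members both mutant libraries lay above both wildtype libraries, and in 2 (Cdh15 and Cdh1) both lay below. The share of all genes that separate in this way was not counted, so these counts are a description only.

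Pcdh9 had 7.10 and 13.1 CPM in the mutant libraries, against 2.46 and 1.64 CPM in the wildtype libraries, without overlap (log2 fold change 2.23, SE 0.45, edgeR adjusted p = 0.00852). These levels come from 22 and 225 UMIs in mutants and 22 and 37 UMIs in wildtype. Cdh8 had 8.07 and 7.28 CPM in mutants, against 2.12 and 0.751 CPM in wildtype, again without overlap (2.39, SE 0.53, edgeR adjusted p = 0.0189), from 25 and 125 UMIs in mutants and 19 and 17 UMIs in wildtype. The UMIs were spread over many cells, since the 225 Pcdh9 UMIs of mutant 2 lay in 193 cells and the 125 Cdh8 UMIs in 94 cells.

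Both calls were sensitive to the libraries and the tool. DESeq2 called neither, with adjusted p-values of 0.0508 for Pcdh9 and 0.0826 for Cdh8. Without wildtype 2 the edgeR adjusted p-values were 0.0567 for Pcdh9 and 0.216 for Cdh8, and without mutant 2 that of Pcdh9 was 0.136, with a log2 fold change of 1.76. Both genes are mainly stromal, and the stroma made up 39.0% and 38.6% of mutant cells, against 25.1% and 19.0% of wildtype cells. In whole libraries a larger share of stromal cells and more RNA of the gene per stromal cell cannot be told apart. Next in order of p were Pcdh11x at 5.49 and 3.90 CPM in mutants and 1.01 and 0.574 CPM in wildtype (2.47, SE 0.64, edgeR adjusted p = 0.0572) and Cdh12 (2.61, SE 0.73, edgeR adjusted p = 0.0928), of whose 111 UMIs 91 came from mutant 2.

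**Figure D3:**
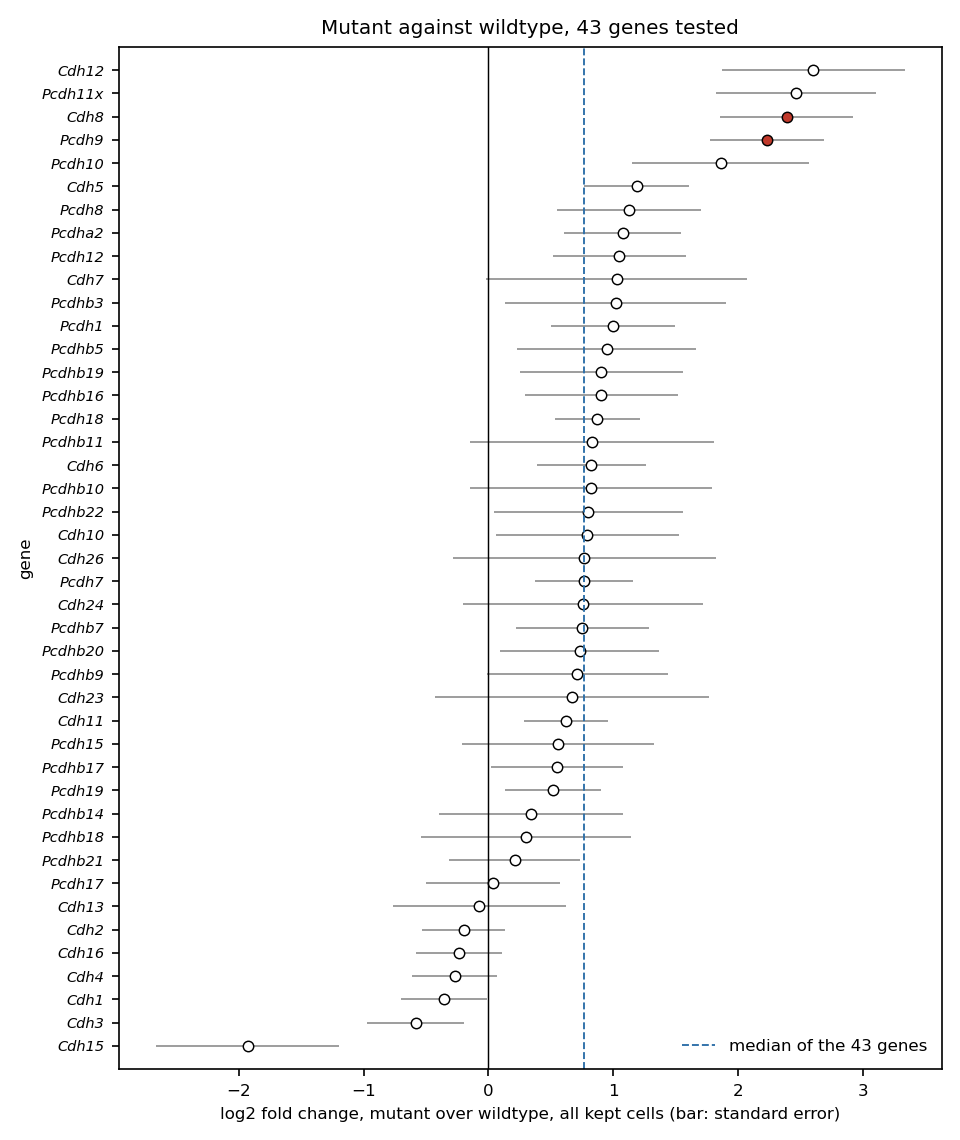
Log2 fold change, mutant over wildtype, of the 43 members tested over all kept cells, with standard errors from edgeR. Filled points passed the test at an adjusted p under 0.05 (Pcdh9 and Cdh8), open points did not, and the dashed line is the members' median of 0.77.

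Within gates, no member passed the test between genotypes. In stroma 19 members were tested with edgeR, 0 were called and 5 had an unadjusted p under 0.05 (0.235% of all genes were called). Cdh8 came nearest, with the stromal levels given above of 16.3 and 16.9 CPM in mutants and 4.02 and 1.68 CPM in wildtype, which do not overlap (2.65, SE 0.54, edgeR adjusted p = 0.0573). Pcdh7 had 18.9 and 25.1 CPM in stromal cells of mutants, against 8.03 and 3.35 CPM in those of wildtype (2.06, SE 0.48, edgeR adjusted p = 0.0993). With the replicate number as a block these 2 members were called (edgeR adjusted p = 0.00155 for Cdh8 and 0.00889 for Pcdh7), but the numbers do not pair the libraries. For Pcdh9 the stromal difference was 1.37 (SE 0.46, edgeR adjusted p = 0.350).

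The stromal cells of the genotypes also differed in their own markers. The 10 stromal markers, none of them at 0, summed to 9497 and 9998 CPM in stromal cells of mutants, against 6823 and 3543 CPM in those of wildtype. Col1a2 had 6116 and 5426 CPM in mutants and 3000 and 1009 CPM in wildtype, while Penk had 122 and 330 CPM in mutants and 318 and 441 CPM in wildtype. Progenitor markers summed to 60.9 and 76.3 CPM in stromal cells of mutants and to 240 and 177 CPM in those of wildtype, with none of the 10 at 0. The part of these values in the Cdh8 and Pcdh7 differences was not tested.

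In ureteric cells 6 members were tested, 0 were called by edgeR and 3 had an unadjusted p under 0.05 (0.781% of all genes were called). Cdh16 had 483 and 443 CPM in ureteric cells of mutants, against 167 and 203 CPM in those of wildtype, without overlap (1.27, SE 0.38, edgeR adjusted p = 0.131). Cdh1 was 177 and 233 CPM in mutants and 108 and 99.7 CPM in wildtype, also without overlap (0.93, SE 0.38, edgeR adjusted p = 0.368), whereas Cdh3 overlapped (-0.07, SE 0.41, edgeR adjusted p = 0.985). Pcdh18 had 1 and 0 UMIs in ureteric cells of mutants and 28 and 33 UMIs in those of wildtype. Pooled, this is a level of 1.82 CPM in mutants against 24.8 CPM in wildtype, a ratio of 0.0736 with a counting interval of 0.00183 to 0.426 (edgeR adjusted p = 0.0885).

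For these genes the design allows a second test, the interaction, of whether the genotype difference in a gate differs from that in the other gates. The other gates enter as 1 sum, whose mix of stromal, progenitor and other cells differs between genotypes as given above. A genotype difference in that sum holds both the shares of its cells and the levels within them, and these cannot be told apart in the sum. In ureteric cells this interaction was called for 3 of 15 members, where 1.79% of all genes were called. The genotype difference of Cdh16 was higher in ureteric cells than in the rest by 1.30 on the log2 scale (SE 0.24, edgeR adjusted p = 0.000238), and that of Cdh1 by 1.33 (SE 0.29, edgeR adjusted p = 0.00224). In the other gates Cdh16 had 13.5 and 29.1 CPM in mutants and 23.2 and 26.1 CPM in wildtype, and Cdh1 had 10.1 and 22.8 CPM in mutants and 23.2 and 22.7 CPM in wildtype. Pcdh18 went the other way, with 63.1 and 96.3 CPM in the other gates of mutants and 44.5 and 34.7 CPM in those of wildtype (-4.90, SE 0.84, edgeR adjusted p = 6.19e-05). The Cdh1 interaction lost its call with no mitochondrial limit (0.99, edgeR adjusted p = 0.0664). Without wildtype 1 and without wildtype 2 it was 1.30 and 1.28 and lost its call as well. The Cdh16 interaction lost its call with a gate of fewer markers (0.90, edgeR adjusted p = 0.582).

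The ureteric gate held 31 and 37 cells in mutants and 102 and 184 in wildtype, and its makeup differed. Its 10 markers, none at 0, summed to 2929 and 3290 CPM in mutants and to 2970 and 2846 CPM in wildtype. Within the list, the tip genes Ret (13.3 and 55.8 CPM in mutants, 115 and 101 CPM in wildtype) and Wnt11 (13.3 and 18.6 CPM in mutants, 101 and 158 CPM in wildtype) did not overlap between genotypes. The trunk gene Wnt9b had 111 and 161 CPM in mutants and 60.2 and 46.2 CPM in wildtype. Markers of the proximal tubule summed to 88.6 and 83.7 CPM in ureteric cells of mutants and to 8.45 and 25.1 CPM in those of wildtype, with Hnf4a and Spp2 at 0. Stromal markers summed to 35.4 and 149 CPM in mutants and to 43.3 and 49.5 CPM in wildtype. The part of these values in the Cdh16, Cdh1 and Pcdh18 differences was not tested.

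**Figure D4:**
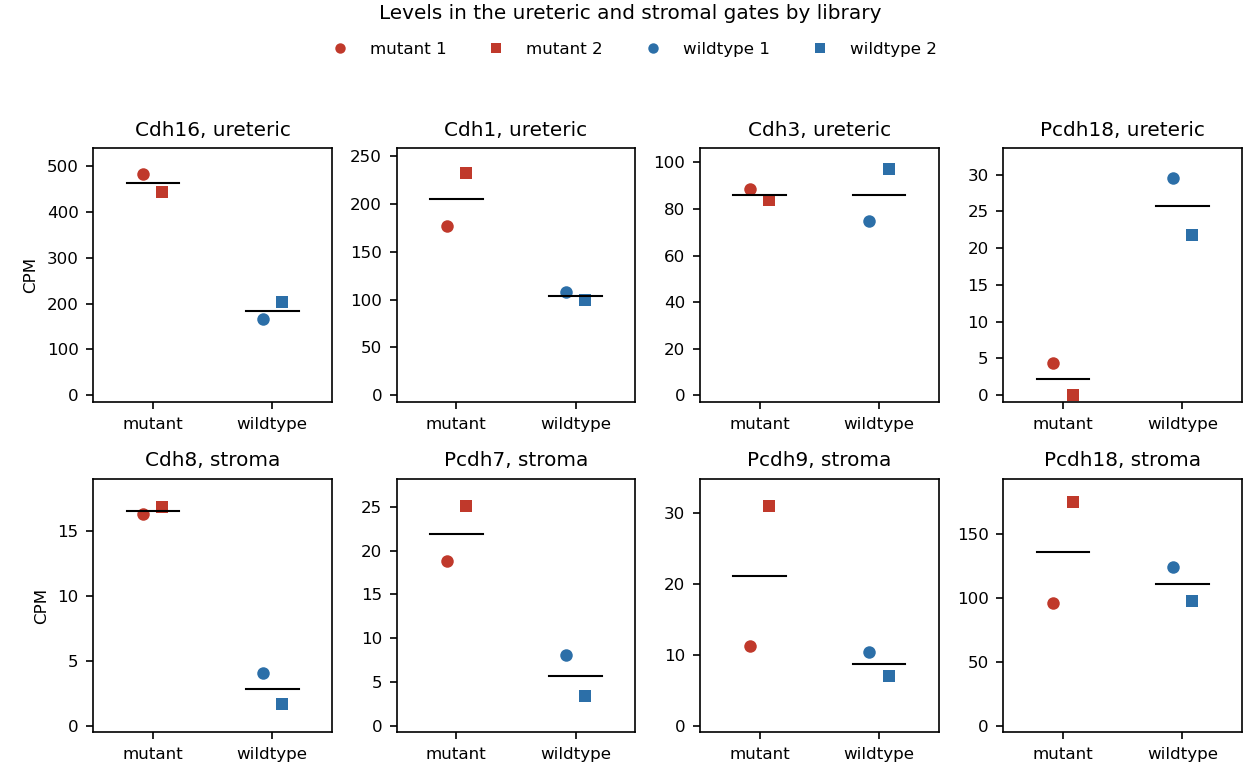
Level in CPM of Cdh16, Cdh1, Cdh3 and Pcdh18 in ureteric cells and of Cdh8, Pcdh7, Pcdh9 and Pcdh18 in stromal cells, 1 point per library, mutant left of wildtype, with the bar at the mean of 2 libraries. Cdh16 lies at 483 and 443 CPM in mutant ureteric cells and at 167 and 203 CPM in wildtype ureteric cells, while Cdh3 overlaps.

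In stroma the interaction was called for 4 of 36 members, where 3.88% of all genes were called, namely Cdh11 (2.40, SE 0.13, edgeR adjusted p = 1.73e-10), Cdh2 (1.59, SE 0.22, edgeR adjusted p = 0.000426), Pcdh18 (1.44, SE 0.27, edgeR adjusted p = 0.00244) and Pcdh7 (1.91, SE 0.43, edgeR adjusted p = 0.00985). For Cdh11 and Cdh2 the rest differs between genotypes in its number of progenitor cells, which carry both genes. The part of these cells in the Cdh11 and Cdh2 interactions was not tested. A smaller rest, chosen after the data were seen, leaves out the progenitor and the proximal tubule gates together. When the progenitor and proximal tubule gates were taken out of the rest, the rest had 35.7 and 52.3 CPM of Cdh11 in mutants and 13.7 and 33.4 CPM in wildtype. The interaction of Cdh11 was then -0.17 (SE 0.68, edgeR adjusted p = 0.985) and that of Cdh2 0.27 (SE 0.31, edgeR adjusted p = 0.921). Those of Pcdh18 (1.23, SE 0.30, edgeR adjusted p = 0.0277) and Pcdh7 (2.51, SE 0.43, edgeR adjusted p = 0.000870) were called with this rest as well. In the fit with all gates the Pcdh18 call was lost without mutant 2, where its value was 3.28 (edgeR adjusted p = 0.136), and the Pcdh7 call without mutant 2 (0.191) and without wildtype 2 (0.198).

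In endothelial cells no member was called between genotypes. Of 6 members tested, 0 were called and 0 had an unadjusted p under 0.05 with edgeR (0.0247% of all genes were called), and Cdh5 at 442 and 583 CPM in mutants and 380 and 279 CPM in wildtype gave 0.65 (SE 0.39, edgeR adjusted p = 0.999). The interaction was called for Cdh11 alone of 18 members (-1.32, SE 0.36, edgeR adjusted p = 0.0180), where 2.03% of all genes were called. It rests on 3 and 37 endothelial UMIs in mutants and 3 and 29 in wildtype, and it was lost without mutant 2, without wildtype 1 and without wildtype 2. It was also lost with at least 1000 genes per cell (edgeR adjusted p = 0.0602), with no doublet step (0.530), with no mitochondrial limit (0.0549), with a stricter gate (0.0575) and with no filter on low counts (0.182).

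In the nephron gates, too, no member was called between genotypes by edgeR, and none had an unadjusted p under 0.05. This was so for 9 members in early nephron cells, where 0% of all genes were called, for 2 in podocytes (0%) and for 7 in the loop and distal tubule (0.0251%). Cdh4 in podocytes, at 105 and 202 CPM in mutants and 430 and 216 CPM in wildtype, did not overlap between genotypes (-0.85, SE 0.49, edgeR adjusted p = 0.998). The interaction was called for 0 of 15 members in early nephron cells (2.34% of all genes), for 0 of 16 in podocytes (0.087%) and for 0 of 15 in the loop and distal tubule (2%), with 4, 1 and 4 members at an unadjusted p under 0.05. On simulated counts of stroma this test recovered 8% of 2-fold and 74% of 4-fold changes. Counts of 0 called therefore do not show that a difference is absent.

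Partners of the cadherins were followed in 4 lists. Of 11 tested genes for catenins and other proteins that bind the classical cadherin tail, 8 were higher and 1 lower in ureteric cells, where 11% of all genes were higher and 13.8% lower (median log2 fold change 0.50, against -0.04 over all genes), led by Ctnnd2 (3.83), Jup (1.13), Arvcf (1.12) and Hook1 (1.09). In endothelial cells 6 were higher and 2 lower, against 17.7% and 21.5% of all genes (median 0.58, against -0.06), led by Jup (1.87), which encodes plakoglobin, then Vcl (1.0), Mllt4 (0.84) and Ctnnb1 (0.66). In stroma 1 was higher and 5 lower (median -0.26, against 0.00), where 18.4% of all genes were called in each direction.

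Desmosome genes, which encode the adhesion plaques of epithelia and include the desmosomal cadherins, were higher in ureteric cells in 5 of 5 tested, against 11% of all genes (median 3.15), with Dsc2 at 3.87, Dsg2 at 3.18, Pkp3 at 3.15 and Pkp2 at 2.44. All 6 tested in stroma and all 3 tested in endothelium were lower, against 18.4% and 21.5% of all genes. Proximal tubule cells had 4 of 6 higher, against 10.4% of all genes, among them Perp (5.10). Of 10 other cadherin superfamily genes tested in stroma, 4 were higher and 2 lower (median 0.60, against 0.00 over all genes), where 18.4% of all genes were called in each direction. In stroma Fat4 (2.50), Cdhr4 (1.40), Clstn2 (1.34) and Dchs1 (0.96) were higher, Fat4 and Dchs1 being a receptor and ligand pair, and Celsr1 (-2.15) and Celsr2 (-2.58) were lower. Of 11 tested in the proximal tubule, 3 were higher and 2 lower (median 0.32, against -0.18), where 10.4% of all genes were higher and 14.1% lower. Of these, Cdhr2 (5.15) and Cdhr5 (5.04), cadherins of the brush border, were higher.

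In the list of regulators of E-cadherin transcription, which also holds the epithelial splicing factors Esrp1 and Esrp2, genes were called in both directions. In stroma 5 of 10 were higher and 4 lower (18.4% of all genes in each direction), the repressors Twist1 (4.19), Snai2 (3.88), Snai1 (3.38) and Zeb2 (3.21) being higher and the epithelial factors Esrp1 (-4.97), Grhl2 (-3.31), Ovol1 (-3.25) and Esrp2 (-3.05) lower. In ureteric cells 5 of 11 were higher (Ovol2 at 4.65, Esrp1 at 3.84, Grhl2 at 3.64, Esrp2 at 2.65 and Ovol1 at 1.94) and 5 were lower, against 11% and 13.8% of all genes. Cdh1 itself was at 0.574 to 2.79 CPM in stromal cells of every library. Between genotypes over all cells, edgeR called 0 of 12 catenin genes, 0 of 6 desmosome genes and 0 of 12 other superfamily genes. Of the 12 genes in the regulator list 1 was called, Twist1 (log2 fold change 1.71, SE 0.40, edgeR adjusted p = 0.0263). It was at 22.7 ± 8.06 CPM in mutants and 6.42 ± 1.83 CPM in wildtype (SD, n = 2 each). Twist1 was higher in the stroma gate, whose share of cells moved with genotype as given above. The medians of the lists between genotypes were 0.02, -0.14, 0.19 and 0.06 for catenins, desmosome genes, other superfamily genes and regulators, against 0.01 over all genes.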

How the data were processed

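The deposited tables hold UMI counts per gene and cell barcode, 1 table per library, which the authors made from Drop-seq reads with Bowtie2 2.2.7 on mm10, per the submitters' processing notes. The annotation, strand handling and UMI collapsing are not given in the sources used here. The members and gene lists were chosen with earlier results of these data known. All 15144 barcodes had at least 500 genes. From them 2745 with a mitochondrial share over 10% were left out, and then the 5% with the highest Scrublet score per library (scanpy 1.11.5), 620 in all, since the tool's own threshold marked 17. Of the kept cells, 1659 had at least 3 markers of more than 1 gate list, and 861 of these were assigned to a gate by the lead of 2 markers.

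UMIs were summed per library and gate and tested with edgeR 4.0.16 (TMM, filterByExpr, quasi-likelihood) in R 4.3.3, on all genes, with a library block between gates, no block between genotypes, and a gate-by-genotype term with a library block for the interaction. Adjusted p-values below 0.05 were called. Gates with fewer than 10 cells in a library were fitted on the other libraries, an addition made after seeing the data. With 2 libraries against 2, an exact permutation test of 1 value cannot give a p below 0.333, so none was run. DESeq2 1.42.0, other cell filters, looser and stricter gates, no filter on low counts, a joint fit, a replicate block and each library left out were the alternatives. On simulated counts the all-cell genotype fit recovered 56% of genes changed 2-fold and 100% of those changed 4-fold, and the stromal genotype fit 49% and 100%. The stromal interaction fit recovered 8% of genes changed 2-fold and 74% of those changed 4-fold. The changed genes had more UMIs than most members have, and the spread between libraries was set to the same fixed value for every gene. These shares therefore do not carry over to members with few UMIs. Depth is given with each group, and floors are 3 counts per total. Named are members with at least 150 UMIs, those past a test, and the 2 smallest p-values where none passed. For lists, up to 4 genes past the test with the largest change are named, along with a few others chosen after their values were seen. Promoter letters are from RefSeq (GRCm38.p6).

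The same-numbered libraries were checked for pairing. The correlation of their deviations was 0.0791 over all cells and -0.0871 to -0.121 within gates, so that the numbers were not taken as pairs.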

Additional observations from a re-analysis of the deposited data

Results flagged for a closer look

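In 8 cases the genotype difference of a member in a gate differed from that in the other gates by the interaction test. Those other gates are 1 sum, whose mix of cells differs between genotypes. In ureteric cells the log2 difference between the differences was 1.33 for Cdh1, 1.30 for Cdh16 and -4.90 for Pcdh18. In stromal cells it was 2.40 for Cdh11, 1.59 for Cdh2, 1.44 for Pcdh18 and 1.91 for Pcdh7, and in endothelial cells it was -1.32 for Cdh11. With the progenitor and proximal tubule gates out of the comparison, the values were 1.80, 1.79 and -4.47 in ureteric cells, -0.17, 0.27, 1.23 and 2.51 in stromal cells, and -1.48 in endothelial cells, in the same order of genes. With this rest the adjusted p-values of edgeR were 0.985 for Cdh11 and 0.921 for Cdh2 in stroma, and the other 6 passed.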

How the results depend on the processing

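Of the recomputed values of single members, 1182 kept their direction and their side of the threshold, 80 lost their call, 10 gained one and 8 changed sign, and 213 recomputed counts and shares stayed close to the reported value while 39 did not. By construction a joint fit compares a gate with the mean of the other gates' log levels. It left out the progenitor and proximal tubule gates. In this fit the sign changed in podocytes for Cdh11 (1.88) and Cdh2 (0.68) and in stroma for Cdh5 (1.42) and Pcdh17 (0.63). Between genotypes, Cdh2 in the loop and distal tubule ranged from -2.06 to 0.055 with each library left out (0.055 without wildtype 1), and Pcdh1 in endothelium from -0.43 (without mutant 2) to 1.20. The interaction of Cdh11 in endothelium ranged from -1.88 (without wildtype 1) to 0.82 (without wildtype 2), and was -0.17 in stroma with the rest lacking progenitor and proximal tubule cells. The number of members called against the other gates became 18 with no filter on low counts and 7 without the library block in early nephron cells (11 reported), and 7 with DESeq2, 7 with the joint fit and 7 to 11 with each library left out in podocytes (11 reported). In the loop and distal tubule the joint fit gave 7 (11 reported). Between genotypes over all cells (2 reported) DESeq2 called 0, no filter gave 4 and leaving out libraries 0 to 4. Between genotypes in stroma (0 reported) 1 was called with no doublet step, 1 with a looser gate, 2 with no filter and 0 to 2 with libraries left out, and in ureteric cells 1 (Pcdh18) with no mitochondrial limit and 1 with a stricter gate. Interactions numbered 1 in early nephron cells with a looser gate (0 reported), 0 to 1 in the loop and distal tubule with libraries left out and 1 with the smaller rest (0 reported), 2 to 6 in stroma with libraries left out and 2 with the smaller rest (4 reported), and 0 to 2 in endothelium with libraries left out and 0 with no filter (1 reported). The cause of these shifts was not tested. Shares of cells with a UMI depend on depth: at 1500 UMIs they were 44.1% for Cdh5 in endothelium, 27.8% for Cdh16 in ureteric cells, 61.7% for Cdh11 in stroma and 13.9% for Cdh2 in early nephron cells. Unthinned they were 75%, 60.5%, 78.4% and 42.6%, and 45.8% for Cdh1 in ureteric cells and 43.9% for Cdh4 in podocytes.

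With the replicate number as a block, 2 members (Cdh8 and Pcdh7) were called between genotypes in stroma, 2 over all cells and 0 in the other gates. Crossed numbers gave 0 in stroma and 2 over all cells. The libraries share only a number, so neither is evidence of pairing.

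In simulated counts, the tests between genotypes recovered 41% of 2-fold and 99% of 4-fold changes in ureteric cells and 49% and 100% in stroma, and 14 members had under 30 UMIs, too few for any statement on their cell type. The 4664 ungated cells hold 40.4% of Cdh16 UMIs, and 337 of the 1299 Cdh16 UMIs of wildtype 2 lie in 1 cell.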

Other observations

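Cells of the side gates are few, and their values belong to no comparison. Mural cells, the contractile cells around vessels, had 195 and 292 CPM of Pcdh18 in mutants and 626 and 172 CPM in wildtype. Stromal cells had less in each library, at 96.1 and 175 CPM in mutants and 124 and 97.2 CPM in wildtype. The mural cells numbered 3 and 28 in mutants and 5 and 12 in wildtype. The neural and glial cells had 161 CPM of the row named Pcdha2 in mutant 2 and 330 CPM in wildtype 2, from 18 and 3 UMIs.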
